A study of Mus musculus with 31 samples.

Results

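Gene expression in MPP4, the multipotent progenitors of mouse bone marrow that carry the receptor Flk2 on their surface, was compared with that in long-term haematopoietic stem cells (LT-HSC). The members were all arrays whose titles name these populations, 5 of MPP4 and 4 of LT-HSC, out of 31 arrays in the series. Both groups were wild-type C57BL/6 bone marrow. LT-HSC were sorted as Lin-/cKit+/Sca1+/Flk2-/CD48-/CD150+ and MPP4 as Lin-/cKit+/Sca1+/Flk2+, so the MPP4 gate used neither CD48 nor CD150. Each sample was 20000 cells that had been sorted in 2 passes, and RNA was amplified before it was hybridised to a whole-transcript array. Arrays of a group are biological replicates per the labels, which give no age, sex, animal or pool for a sample. LT-HSC arrays were also controls in a related study. The other arrays hold 7 further populations of the same marrow, from short-term stem cells (ST-HSC) to granulocytes, and entered the fits to estimate the spread between replicates. The number of arrays limits the precision of each value.

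LT-HSC renew themselves and maintain all blood lineages for life. They divide rarely, contact niche cells through receptors such as Tie2, and share part of their transcripts with megakaryocytes. MPP4, also called lymphoid-primed multipotent progenitors, are known for lymphoid and granulocyte-monocyte output, for little megakaryocyte and erythroid output, and for the first transcription of genes that later assemble antigen receptors. In sorted bulk samples, fewer cells that carry a transcript and less of it in every cell cannot be told apart.

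Levels are given as log2 values after quantile normalization, which puts all 31 arrays on a common distribution. It was used because array medians differ and the deposited arrays fall into 5 sets that the labels do not name. These sets were recognised by identical values shared within a set. The deposited medians were 6.19 to 6.22 in LT-HSC 1 to 3, 7.02 to 7.05 in MPP4 1 to 3, and 6.91 to 6.92 in LT-HSC 4, MPP4 4 and MPP4 5. The last 3 arrays lie in 1 set, which is linked by only 0 to 4 identical values for each pair of its arrays. LT-HSC 4 and MPP4 5 share 0 and are joined only through other arrays of the set. The deposited medians of this set overlap those of another set, so they do not separate it. Its membership rests on these few identical values. Each gene was therefore fitted both over all arrays (the quantile-normalized fit) and with the set as a term (the set-adjusted fit). The set-adjusted change equals the mean of MPP4 4 and 5 minus LT-HSC 4, so its LT-HSC side is 1 array. LT-HSC 4 stood apart. Across genes it correlated at 0.963 to 0.965 with the other LT-HSC arrays and at 0.968 to 0.976 with the MPP4 arrays. Genes that the account rests on are therefore given array by array. Sex-linked transcripts matched between arrays of the same number. Xist stood at 5.36, 11.39, 10.24 and 12.17 in LT-HSC 1 to 4 and at 5.39, 11.41, 9.91, 11.83 and 5.63 in MPP4 1 to 5. The Y-linked Eif2s3y stood at 9.19, 7.75, 8.97 and 4.21 in LT-HSC and at 9.19, 7.67, 9.41, 4.22 and 9.04 in MPP4. LT-HSC 4 and MPP4 4 thus had high Xist and low Eif2s3y, and MPP4 5 had the reverse. The set-adjusted change is therefore not balanced for sex. Over 4 sex-linked transcripts the median change was 0.15, and 1.61 set-adjusted. The part of sex in the calls was not tested.

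The genes that rose in MPP4 included single members of the early lymphoid, granule protein and leukocyte surface lists, and those that fell included members of the stem cell receptor, detoxification and megakaryocyte lists, while most members of each of these lists passed no test in both fits. The largest rises were those of Dntt, a DNA polymerase of antigen receptor assembly, and Mpo, the granule enzyme myeloperoxidase. Among the largest falls were those of Clca3a1 and Abcg3, beside the gate gene Slamf1. Of 19938 genes, 174 rose (0.873%) and 222 fell (1.11%), meaning that limma called them in the same direction in both fits at a Benjamini-Hochberg adjusted p under 0.05. Together these are 1.99% of the genes. The quantile-normalized fit alone called 4932 (24.7%), of which 2457 were higher (12.3%) and 2475 lower (12.4%) in MPP4. On the values as deposited it called 11568 higher and 395 lower, with the median of all genes shifted by 0.54. The set-adjusted fit called 547 (2.74%), with 278 higher (1.39%) and 269 lower (1.35%), or 121 higher and 224 lower on the values as deposited. With the replicate number as a block, which leaves out MPP4 5 because it has no LT-HSC partner, the set-adjusted count was 887. It was 292 without MPP4 4 and 1043 without MPP4 5, and the count called in both fits was 232 without MPP4 4. All 5 MPP4 arrays lay above all 4 LT-HSC arrays for 1289 genes (6.47%) and below them for 1287 (6.46%), and 339 genes were both separated in this way and called in both fits.

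Comparisons that share no array gave like changes for the called genes and only weakly related ones over all genes. The change from LT-HSC 1 to 3 to MPP4 1 to 3 and the change from LT-HSC 4 to MPP4 4 and 5 correlated across all 19938 genes at a Pearson r of 0.362 and a Spearman rho of 0.218, and 56.2% of genes had the same sign. Among the 396 called genes r was 0.919, which the requirement of calls in both fits largely sets. Genes are not independent replicates, and these values carry no test.

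**Figure D1:**
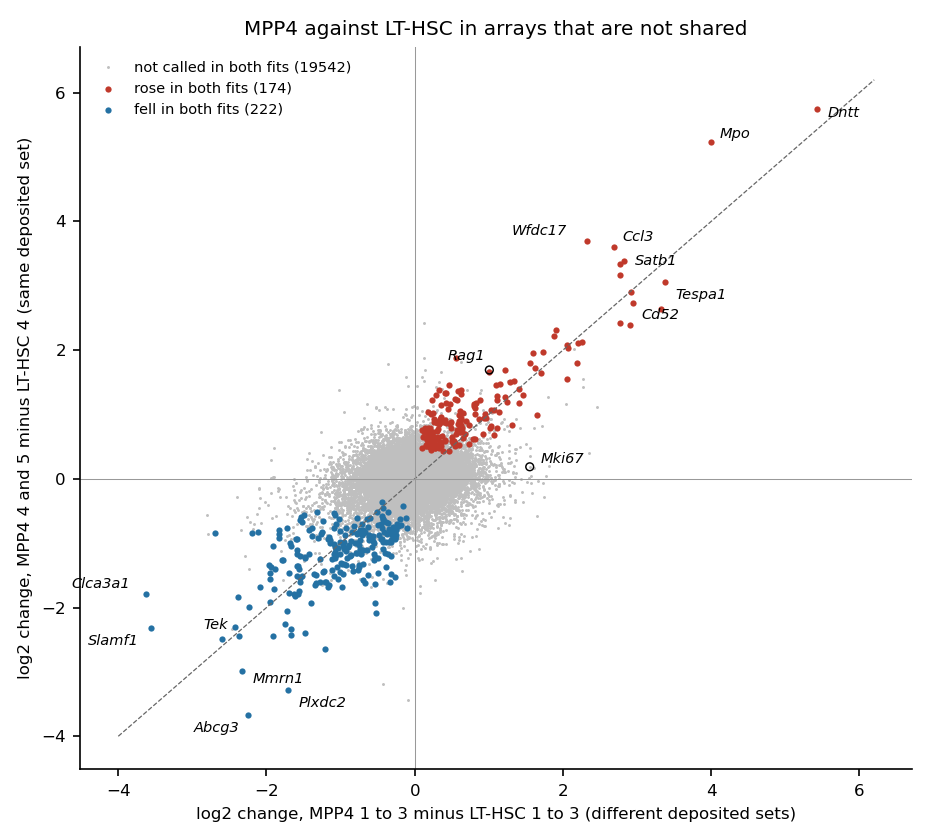
Each point is a gene, with the log2 change between MPP4 1 to 3 and LT-HSC 1 to 3 on the x axis and that between MPP4 4 and 5 and LT-HSC 4 on the y axis, and the dashed line marks equal change. The 174 red and 222 blue genes were called in both fits, Dntt and Mpo lie far from the other rises, and Mki67, not called, lies at 1.55 on the x axis and 0.19 on the y axis.

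The genes of the sort gates followed the labels, which checks the sort and is no finding. Slamf1, which encodes CD150, stood at 9.05, 9.17, 8.82 and 7.83 in LT-HSC 1 to 4 and at 5.13 to 5.78 in MPP4. Flt3, which encodes Flk2, stood at 7.89 to 8.50 in LT-HSC and at 11.09, 10.71, 10.86, 11.90 and 11.77 in MPP4. Cd48 stood at 6.58, 6.66, 6.37 and 7.58 in LT-HSC 1 to 4 and at 9.73 to 10.40 in MPP4. For all 3 genes LT-HSC 4 was the LT-HSC array nearest to MPP4, and no array of one group reached the other. Kit, shared by both gates, stood at 11.25 to 11.60 in LT-HSC and 10.86 to 11.05 in MPP4. Cd34, a surface protein of progenitors that neither gate used, rose, with 10.34 to 10.59 in the LT-HSC and 11.72 to 11.87 in the MPP4 arrays (1.35 ± 0.12, adjusted p = 8.2e-09; set-adjusted 1.5 ± 0.23, adjusted p = 0.0004, each ± SE). The Sca1 gene Ly6a was not analysed here.

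Promoter sequence is shown for 4 genes called in both fits, the rising Dntt, Mpo and Il7r and the falling Tek. Each is the 300-base window around the annotated start in RefSeq, build GRCm38.p6, read 5′ to 3′ on the strand of the gene. The windows are chr19:41029025-41029324 (plus strand), chr11:87793534-87793833 (plus strand), chr15:9529827-9530126 (minus strand) and chr4:94739039-94739338 (plus strand). Capitals mark TGTGGT, the core letters bound by RUNX factors, AGGAAG, letters bound by ETS factors, and GGGCGG, the GC box, on either strand.
Dntt: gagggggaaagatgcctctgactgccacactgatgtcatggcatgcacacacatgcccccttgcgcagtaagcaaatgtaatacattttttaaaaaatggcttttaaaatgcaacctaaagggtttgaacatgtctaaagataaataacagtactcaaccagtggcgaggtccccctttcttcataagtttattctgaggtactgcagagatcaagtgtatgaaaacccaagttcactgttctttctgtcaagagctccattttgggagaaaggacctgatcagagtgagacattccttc
Mpo: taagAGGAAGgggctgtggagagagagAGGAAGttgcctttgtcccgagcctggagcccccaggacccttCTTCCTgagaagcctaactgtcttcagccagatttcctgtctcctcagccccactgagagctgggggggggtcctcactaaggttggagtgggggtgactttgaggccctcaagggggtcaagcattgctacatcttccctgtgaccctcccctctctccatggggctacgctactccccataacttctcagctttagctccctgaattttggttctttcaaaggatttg
Il7r: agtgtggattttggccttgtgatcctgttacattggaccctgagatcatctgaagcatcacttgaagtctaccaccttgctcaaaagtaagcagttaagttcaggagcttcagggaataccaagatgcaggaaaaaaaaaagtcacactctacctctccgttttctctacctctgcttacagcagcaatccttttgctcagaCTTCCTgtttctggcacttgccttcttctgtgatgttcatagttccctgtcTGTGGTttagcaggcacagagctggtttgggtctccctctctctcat
Tek: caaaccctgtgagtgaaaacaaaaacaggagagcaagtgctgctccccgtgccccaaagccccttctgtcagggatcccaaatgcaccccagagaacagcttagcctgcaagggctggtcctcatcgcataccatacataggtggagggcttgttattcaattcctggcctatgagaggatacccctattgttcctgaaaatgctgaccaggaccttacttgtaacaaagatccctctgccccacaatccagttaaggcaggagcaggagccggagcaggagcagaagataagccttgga
The Mpo window holds 3 matches to AGGAAG, the Il7r window holds 1 to AGGAAG and 1 to TGTGGT, and the Dntt and Tek windows hold none of the 3 motifs. Promoters were matched for 133 of the 174 genes that rose, 171 of the 222 that fell and 15614 of all genes tested. TGTGGT occurred in 24.1% of the rising, 12.3% of the falling and 16.4% of all promoters. AGGAAG occurred in 43.6%, 39.8% and 36.9%, and the longer GAGGAAGT, which contains it and is bound by PU.1, in 7.52%, 4.09% and 3.24%. GGGCGG was found in 47.4% of the rising, 69.0% of the falling and 52.9% of all promoters. The E-box CAGCTG was found in 18.0%, 26.9% and 18.4%, and CAGGTG in 27.8%, 28.1% and 22.2%. AGATAA, bound by GATA factors, was found in 11.3%, 11.1% and 10.8%, and TTGCNNAA, bound by C/EBP factors, in 12%, 11.1% and 11.3%. These shares count letters on both strands and are descriptions without a test.

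Several genes of early lymphoid development were raised in MPP4. Of 25 measured genes for early lymphoid enzymes and receptors, 6 rose and none fell, against 0.873% and 1.11% of all genes. The quantile-normalized fit alone called 11 members higher and 4 lower in MPP4, against 12.3% and 12.4% of all genes. All MPP4 arrays lay above all LT-HSC arrays for 11 members and below them for 2, against 6.47% and 6.46% of all genes. The median change of the list was 0.38 in the quantile-normalized fit and 0.72 in the set-adjusted fit, against -0.00036 and 0.05 over all genes. Dntt, which adds nucleotides at antigen receptor joints, stood at 5.41, 5.53, 5.50 and 5.94 in LT-HSC 1 to 4 and at 10.79, 11.03, 10.92, 11.56 and 11.84 in MPP4 1 to 5. The groups were separated by more than 4 units, and the change was 5.63 ± 0.21, adjusted p = 1.2e-16; set-adjusted 5.75 ± 0.24, adjusted p = 2.9e-13. Tespa1, an adaptor of T cell receptor signalling, stood at 5.23 to 5.92 in LT-HSC and 8.55 to 9.40 in MPP4 (3.32 ± 0.27; set-adjusted 3.06 ± 0.47). Cd52, a small surface glycoprotein of leukocytes, stood at 6.69 to 7.10 and 9.22 to 10.00 (2.83 ± 0.25; set-adjusted 2.74 ± 0.27). Cd69, an early activation antigen, rose as well (2.21 ± 0.26; set-adjusted 2.11 ± 0.49), with its lowest array in each group being array 1.

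Il7r and Rag2 rose, and their levels were uneven among MPP4 arrays. Il7r, the receptor chain for the lymphoid cytokine interleukin 7, stood at 4.57, 4.79, 4.75 and 5.63 in LT-HSC and at 5.91, 6.08, 6.76, 7.09 and 7.78 in MPP4 (1.79 ± 0.32, adjusted p = 0.00026; set-adjusted 1.80 ± 0.43, adjusted p = 0.024). Rag2, a subunit of the recombinase, stood at 4.63, 4.6, 5.26 and 5.39 in LT-HSC and at 5.77, 6.26, 6.50, 6.70 and 7.13 in MPP4 (1.5 ± 0.22, adjusted p = 1.7e-05; set-adjusted 1.52 ± 0.34, adjusted p = 0.015). For both genes the groups were separated, with MPP4 5 highest. Rag1, its partner, stood at 5.99 to 6.28 in LT-HSC and at 6.90, 7.03, 7.22, 7.17 and 8.77 in MPP4. Its quantile-normalized change of 1.32 ± 0.31 was called (adjusted p = 0.003), but the set-adjusted change of 1.69 ± 0.55 was not (adjusted p = 0.1), although it was without MPP4 4 (2.49, adjusted p = 0.020). Ebf1, a B cell transcription factor, stood at 5.54 to 5.82 in LT-HSC and at 5.79, 5.76, 5.88, 5.83 and 6.69 in MPP4, and Igll1, a part of the pre-B cell receptor, at 7.01 to 7.14 and at 7.06, 7.04, 7.28, 7.29 and 8.26. For both of these, MPP4 5 alone lay well above LT-HSC, and neither change was called in both fits (Ebf1 0.30 ± 0.30, adjusted p = 0.49; set-adjusted 0.61 ± 0.58, adjusted p = 0.67; Igll1 0.31 ± 0.23, adjusted p = 0.32; set-adjusted 0.75 ± 0.32, adjusted p = 0.22). Without MPP4 4 the set-adjusted fit called Igll1 (1.24, adjusted p = 0.0446). The set-adjusted calls of Il7r (adjusted p = 0.09) and Rag2 (adjusted p = 0.053) were lost without MPP4 5, that of Il7r also with the replicate block (adjusted p = 0.097), and that of Cd69 without MPP4 4 (adjusted p = 0.062) and on the deposited values.

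Among 25 measured lymphoid transcription factors 4 rose and 1 fell, against 0.873% and 1.11% of all genes. Median changes were 0.27 and 0.40 (set-adjusted). The quantile-normalized fit alone called 8 of these factors higher and 4 lower, against 12.3% and 12.4% of all genes. Satb1, a chromatin organizer of lymphoid cells, stood at 8.03, 7.95, 7.77 and 7.90 in LT-HSC and at 10.71, 10.77, 10.75, 11.39 and 11.19 in MPP4. The groups were far apart with little spread within each, and the change was 3.05 ± 0.17, adjusted p = 7.4e-13; set-adjusted 3.39 ± 0.29, adjusted p = 1.2e-07. The other rises were smaller. Runx3 rose by 0.69 ± 0.14, Ikzf1, which encodes Ikaros, by 0.62 ± 0.10, and Pou2f2, which encodes Oct2, by 0.36 ± 0.10. For Pou2f2 the groups overlapped, and the change was 0.21 between arrays 1 to 3 of each group and 0.69 ± 0.16 set-adjusted. Gata3, a factor of T cell development that stem cells also transcribe, fell, standing at 8.30 to 8.56 in the LT-HSC and 6.76 to 7.17 in the MPP4 arrays (-1.43 ± 0.14, adjusted p = 2.4e-08; set-adjusted -1.17 ± 0.22, adjusted p = 0.0033). Notch1, a receptor of T cell commitment, was called in the set-adjusted fit only (0.42 ± 0.18, adjusted p = 0.088; set-adjusted 1.05 ± 0.28, adjusted p = 0.044), and not without any one of LT-HSC 1 to 3 or MPP4 1 to 4 (adjusted p from 0.0514 to 0.290). The differences for Mef2c (0.32 ± 0.13, adjusted p = 0.078; set-adjusted 0.34 ± 0.17, adjusted p = 0.32), Tcf3 (0.12 ± 0.09, adjusted p = 0.34; set-adjusted 0.31 ± 0.15, adjusted p = 0.28) and Bcl11a (-0.19 ± 0.14, adjusted p = 0.32; set-adjusted 0.17 ± 0.18, adjusted p = 0.72) were called in neither fit, with Mef2c called in the quantile-normalized fit without LT-HSC 4 (adjusted p = 0.0265). The set-adjusted calls of Runx3 (adjusted p = 0.26) and Ikzf1 (adjusted p = 0.24) were lost without MPP4 4 and on the deposited values, and that of Pou2f2 without MPP4 5 (adjusted p = 0.053). Ikzf1 was also lost after median subtraction and Pou2f2 with only the 9 arrays.

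Some granulocyte-monocyte transcripts rose beside the lymphoid ones. Of 21 measured granule and effector genes 4 rose and none fell, against 0.873% and 1.11% of all genes. Median changes were 0.48 and 0.45 (set-adjusted). Mpo stood at 6.65, 6.82, 6.83 and 6.44 in LT-HSC and at 10.93, 10.91, 10.48, 11.68 and 11.67 in MPP4. All MPP4 arrays exceeded all LT-HSC arrays by over 3 units, and the change was 4.44 ± 0.26, adjusted p = 2.2e-12; set-adjusted 5.23 ± 0.43, adjusted p = 1.1e-07. Ctsg, the granule protease cathepsin G, stood at 5.61 to 6.52 in LT-HSC and 8.30 to 9.29 in MPP4 (2.72 ± 0.29; set-adjusted 2.43 ± 0.52). Clec12a, an inhibitory lectin receptor of myeloid cells, rose as well (2.82 ± 0.36; set-adjusted 2.40 ± 0.32), as did Plac8 (2.16 ± 0.18; set-adjusted 1.80 ± 0.27). Elane, the neutrophil elastase, stood at 6.93 to 7.30 in LT-HSC and 6.67 to 7.15 in MPP4, and Prtn3, proteinase 3, at 7.53 to 8.75 and 7.93 to 8.38. The groups overlapped for both of these proteases, whose changes were not called (Elane -0.22 ± 0.26, adjusted p = 0.58; set-adjusted 0.08 ± 0.46, adjusted p = 0.96; Prtn3 -0.27 ± 0.30, adjusted p = 0.53; set-adjusted 0.45 ± 0.39, adjusted p = 0.62).

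Of 21 granulocyte-monocyte transcription factors and receptors 2 rose and none fell, against 0.873% and 1.11% of all genes. The median changes were 0.20 and 0.25 (set-adjusted), and -0.02 when arrays were scaled by their medians instead. The risen genes were Irf8, a factor of monocyte and dendritic cell fate (0.52 ± 0.17, adjusted p = 0.022; set-adjusted 0.65 ± 0.18, adjusted p = 0.048), and Csf1r, the receptor for macrophage colony-stimulating factor (0.37 ± 0.11, adjusted p = 0.015; set-adjusted 0.60 ± 0.16, adjusted p = 0.045). Both lie close to the threshold, and Irf8 in LT-HSC 4 lay among the MPP4 arrays. Irf8 lost a call without any one of LT-HSC 1 to 3 or MPP4 2 to 5 (adjusted p from 0.0556 to 0.111 in the set-adjusted fit) and with the replicate block (adjusted p = 0.12). Csf1r lost one without any one of LT-HSC 1 to 3 or MPP4 1, 2 or 4 (adjusted p from 0.0512 to 0.221 in the set-adjusted fit). Both were also lost on the deposited values and with only the 9 arrays, and Irf8 with the set as a random block and with the trend and robust variance model. Cebpa, the factor that commits cells to the granulocyte-monocyte path, stood at 7.42 to 8.32 in LT-HSC and 8.57 to 9.49 in MPP4. Its quantile-normalized change of 1.06 ± 0.17 was called (adjusted p = 5.2e-05) and its set-adjusted change of 0.93 ± 0.26 just missed the threshold (adjusted p = 0.051). Cebpa passed it with the replicate block (1.17, adjusted p = 0.018) and without any one of LT-HSC 1 or 2 or MPP4 1, 3 or 5 (adjusted p from 0.0189 to 0.0482). Csf3r, the receptor for granulocyte colony-stimulating factor, was higher in the quantile-normalized fit and not called set-adjusted (0.72 ± 0.17, adjusted p = 0.003; set-adjusted 0.64 ± 0.23, adjusted p = 0.14). For Spi1, which encodes PU.1, neither fit gave a call (0.25 ± 0.16, adjusted p = 0.26; set-adjusted 0.75 ± 0.23, adjusted p = 0.087), though the set-adjusted one did without MPP4 5 (adjusted p = 0.0286) and with the replicate block (adjusted p = 0.0423).

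**Figure D2:**
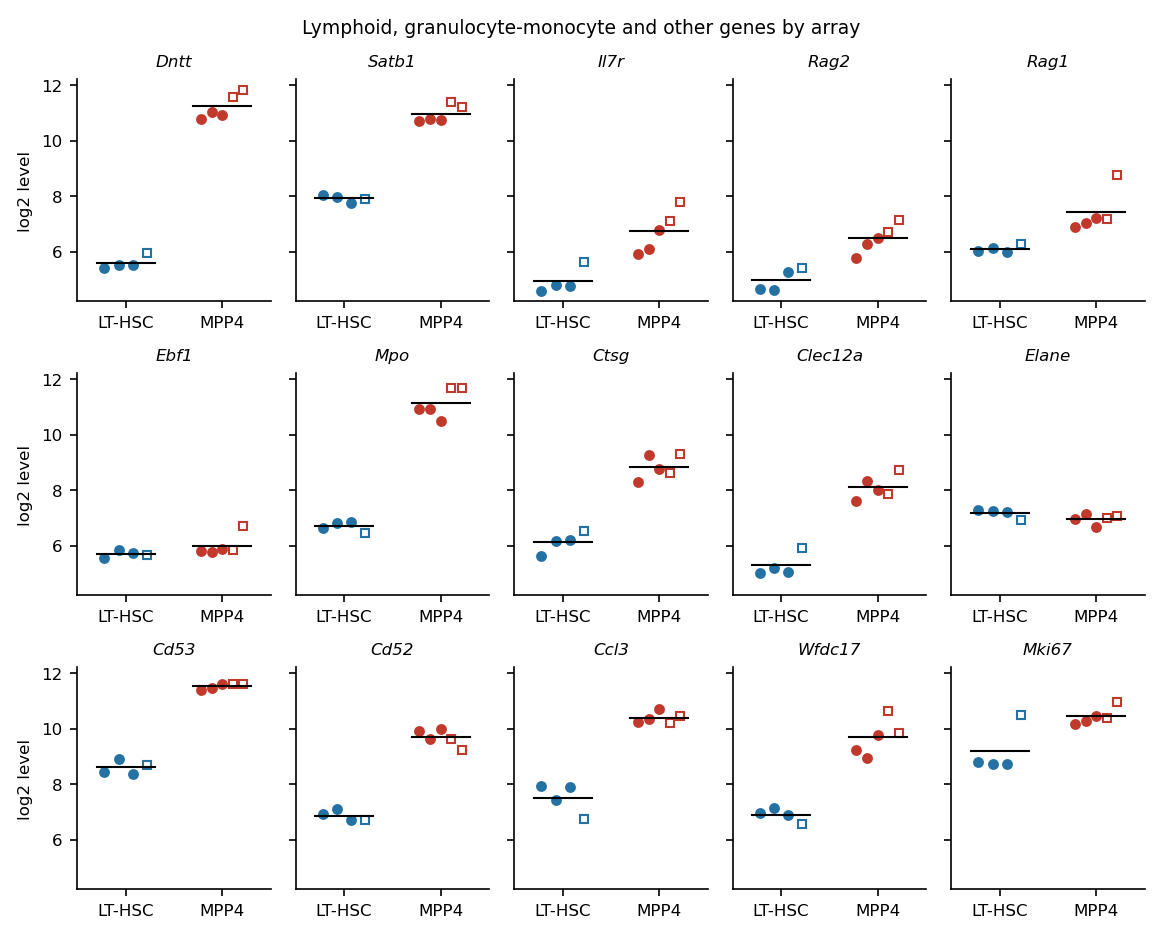
Log2 levels after quantile normalization of 15 genes in the 4 LT-HSC (blue) and 5 MPP4 (red) arrays; open squares are LT-HSC 4, MPP4 4 and MPP4 5, which share a set, and bars are group means. Dntt, Satb1, Mpo and Cd53 are separated between the groups, Rag1 and Ebf1 are highest in MPP4 5, Elane overlaps, and Mki67 in LT-HSC 4 (10.48) lies among the MPP4 arrays.

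Surface molecules of leukocytes formed the list with the most rises among the lists counted. Of 25 measured chemokine receptors and adhesion molecules 7 rose and none fell, against 0.873% and 1.11% of all genes. Median changes were 0.51 and 0.43 (set-adjusted). Cd53, a tetraspanin of leukocytes, stood at 8.44, 8.89, 8.38 and 8.70 in LT-HSC and at 11.39, 11.46, 11.62, 11.60 and 11.61 in MPP4 (2.93 ± 0.20, adjusted p = 6.7e-11; set-adjusted 2.91 ± 0.38, adjusted p = 7.2e-05). Cd244a, a receptor for CD48, rose by 1.88 ± 0.15. Smaller rises were those of Cd44, the hyaluronan receptor (1.03 ± 0.11), Itgal, an integrin chain (0.97 ± 0.14), Cd37, another tetraspanin (0.76 ± 0.18), Ly9, of the family of CD150 (0.75 ± 0.12), and Cd27 (0.45 ± 0.11). Those of Cd37 and Cd27 were 0.41 and 0.31 between arrays 1 to 3 of each group, and 1.33 ± 0.26 and 0.74 ± 0.17 set-adjusted. Without MPP4 4 the set-adjusted calls of Cd44 (adjusted p = 0.18), Itgal (adjusted p = 0.21), Cd37 (adjusted p = 0.074), Ly9 (adjusted p = 0.094) and Cd27 (adjusted p = 0.074) were lost. Those of Cd44, Itgal, Ly9 and Cd27 were also lost on the deposited values, and Cd37 and Cd27 lost a call after median subtraction. Cxcr4, the receptor that holds progenitors in the marrow, had a quantile-normalized change of 0.51 ± 0.18 (adjusted p = 0.033) that the set-adjusted fit did not call (0.71 ± 0.23, adjusted p = 0.096), and its first call was lost without any one of LT-HSC 1 to 3, MPP4 4 or MPP4 5 (adjusted p from 0.0816 to 0.110). Ccr9, a homing receptor of thymus-bound cells, overlapped between the groups, with 5.91 to 6.44 in LT-HSC and 6.28 to 7.47 in MPP4.

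Several large rises lay outside these lists. Ccl3, a chemokine, stood at 7.92, 7.41, 7.90 and 6.73 in LT-HSC and at 10.23, 10.35, 10.71, 10.21 and 10.46 in MPP4 (2.90 ± 0.26, adjusted p = 8e-09; set-adjusted 3.60 ± 0.35, adjusted p = 1.2e-06). Wfdc17, a secreted protein of the whey acidic protein family, stood at 6.94, 7.14, 6.90 and 6.55 and at 9.23, 8.95, 9.76, 10.63 and 9.86 (2.80 ± 0.28, adjusted p = 5.9e-08; set-adjusted 3.69 ± 0.45, adjusted p = 3e-05). For both genes LT-HSC 4 was the lowest LT-HSC array, so that it lay farther from MPP4 than its group did. Atp8b4, of the phospholipid flippase family, rose as well (3.02 ± 0.26; set-adjusted 3.17 ± 0.31).

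Stem cell transcription factors fell in part, and several best-known ones did not pass both fits. Of 18 measured factors 3 fell and none rose, against 1.11% and 0.873% of all genes. The quantile-normalized fit alone called 13 lower and 0 higher, against 12.4% and 12.3% of all genes. Median changes were -0.50 and -0.37 (set-adjusted), and -0.81 with arrays scaled by their medians. Mecom, which encodes Evi1 and is required for stem cell maintenance, stood at 10.71, 10.59, 10.64 and 10.41 in LT-HSC and at 9.05, 9.14, 9.01, 8.77 and 8.48 in MPP4. The groups were separated by more than 1 unit, and the change was -1.70 ± 0.17, adjusted p = 3.7e-08; set-adjusted -1.79 ± 0.23, adjusted p = 4.6e-05. Mllt3, a regulator of stem cell self-renewal, stood at 11.35 to 11.49 and 9.70 to 10.28 (-1.37 ± 0.17; set-adjusted -1.61 ± 0.25). Rarb, a retinoic acid receptor, stood at 8.64, 8.84, 8.70 and 7.20 in LT-HSC and 6.36 to 6.57 in MPP4 (-1.88 ± 0.21). LT-HSC 4 lay nearer to MPP4 for Rarb, and its set-adjusted change was -0.84 ± 0.21 (adjusted p = 0.03), a call that was lost without MPP4 4 (adjusted p = 0.1), with the replicate block (adjusted p = 0.065) and on the deposited values.

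For some other factors LT-HSC 4 also lay nearer to MPP4 than the rest of its group did. Hlf, a factor that marks stem cells, stood at 11.70, 11.50, 11.51 and 11.00 in LT-HSC and at 11.04, 11.03, 11.02, 11.05 and 10.76 in MPP4. LT-HSC 4 lay among the MPP4 arrays, and the quantile-normalized change of -0.45 ± 0.12 was called (adjusted p = 0.0073) while the set-adjusted change of -0.10 ± 0.16 was not (adjusted p = 0.83). The first of these was lost without LT-HSC 1 (adjusted p = 0.0508). Hoxb5 stood at 8.68, 8.98, 8.85 and 7.22 in LT-HSC and at 6.79, 8.01, 7.28, 6.43 and 6.55 in MPP4 (-1.42 ± 0.26, adjusted p = 0.00033; set-adjusted -0.73 ± 0.26, adjusted p = 0.14), and it passed the set-adjusted threshold with the replicate block (adjusted p = 0.0356) and without MPP4 1 (adjusted p = 0.0412) or MPP4 2 (adjusted p = 0.0177). Prdm16 and Gata2, both needed by stem cells, were lower in MPP4 in the quantile-normalized fit and missed the set-adjusted threshold (Prdm16 -0.89 ± 0.12, adjusted p = 7.5e-06; set-adjusted -0.43 ± 0.18, adjusted p = 0.22; Gata2 -0.73 ± 0.12, adjusted p = 9.5e-05; set-adjusted -0.43 ± 0.20, adjusted p = 0.28), which Prdm16 passed without MPP4 4 (adjusted p = 0.0477). Meis1, a partner of Hox proteins, was called in neither fit (-0.38 ± 0.18, adjusted p = 0.12; set-adjusted -0.66 ± 0.29, adjusted p = 0.24), and LT-HSC 4 lay within its group. Of 17 measured Hox genes none passed both fits in either direction. The quantile-normalized fit called 2 higher and 6 lower, against 12.3% and 12.4% of all genes, and the set-adjusted fit called 0. Their median changes were -0.29 and -0.03 (set-adjusted). Over all genes 1.99% passed both fits, so a list this short may hold none. Hoxa9 overlapped, at 8.42 to 8.72 in LT-HSC and 8.51 to 8.75 in MPP4.

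Surface and niche receptors of stem cells held as many falls as any list counted. Of 24 measured members 7 fell and 1 rose, against 1.11% and 0.873% of all genes. The quantile-normalized fit alone called 17 lower and 4 higher, against 12.4% and 12.3% of all genes. Median changes were -0.85 and -0.48 (set-adjusted). Tek encodes Tie2, the receptor for angiopoietin in the niche. It stood at 9.34, 9.47, 9.35 and 8.73 in LT-HSC and at 6.96, 6.97, 7.10, 6.14 and 6.46 in MPP4. The lowest LT-HSC array lay more than 1 unit above the highest MPP4 array, and the change was -2.50 ± 0.17, adjusted p = 5e-11; set-adjusted -2.43 ± 0.18, adjusted p = 1.1e-08. Its relative Tie1 fell as well (-0.84 ± 0.11; set-adjusted -0.85 ± 0.17). Ctnnal1, an alpha-catenin-like protein used to mark stem cells, fell (-1.87 ± 0.20), as did Pdzk1ip1 (-1.54 ± 0.24; set-adjusted -0.93 ± 0.19), Esam, an endothelial adhesion molecule on stem cells (-1.18 ± 0.14), and the integrin chain Itga6 (-1.04 ± 0.11). Pdzk1ip1 stood at 9.66, 9.71, 9.96 and 8.39 in LT-HSC, with LT-HSC 4 lowest. The set-adjusted call of Ctnnal1 was lost without MPP4 4 (adjusted p = 0.16) and that of Pdzk1ip1 with the replicate block (adjusted p = 0.05035). The member that rose was Vldlr, a lipoprotein receptor (0.64 ± 0.15; set-adjusted 0.91 ± 0.23), with overlap between the groups, and it and Tie1 were chosen after their values were seen. Procr, the endothelial protein C receptor, stood at 9.32, 8.97, 9.22 and 7.98 in LT-HSC and 7.48 to 8.40 in MPP4. Its quantile-normalized change of -0.83 ± 0.19 was called (adjusted p = 0.0024) and its set-adjusted change of -0.20 ± 0.21 was not (adjusted p = 0.71).

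Of 18 detoxification and efflux genes 3 fell and none rose, against 1.11% and 0.873% of all genes. The quantile-normalized fit alone called 11 lower and 0 higher, against 12.4% and 12.3% of all genes. Median changes were -0.61 and -0.13 (set-adjusted), and -0.95 with arrays scaled by their medians. Abcg3, an ABC transporter, stood at 9.66, 9.63, 9.60 and 9.80 in LT-HSC and at 7.20, 7.66, 7.29, 6.49 and 5.78 in MPP4. Its SD was 0.09 over the 4 LT-HSC arrays and 0.75 over the 5 MPP4 arrays, and the change was -2.79 ± 0.28, adjusted p = 5.1e-08; set-adjusted -3.67 ± 0.40, adjusted p = 5.6e-06. Aldh1a1, a retinaldehyde dehydrogenase, stood at 10.52, 10.45, 10.49 and 9.37 in LT-HSC and at 7.94, 7.99, 7.73, 6.55 and 7.22 in MPP4 (-2.72 ± 0.29; set-adjusted -2.48 ± 0.41). LT-HSC 4 was again the lowest LT-HSC array and still lay above every MPP4 array. Abcg2, the transporter behind the dye-effluxing side population, fell as well (-1.18 ± 0.22; set-adjusted -1.31 ± 0.24). Sult1a1, a sulfotransferase, was lower by the quantile-normalized fit (-1.49 ± 0.15) and not called set-adjusted (-0.58 ± 0.18, adjusted p = 0.083).

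Further large falls were those of Hacd4, an enzyme of fatty acid elongation (-2.43 ± 0.16), Plxdc2 (-2.28 ± 0.24), the guanine deaminase Gda (-2.25 ± 0.22), Cd55, which shields cells from complement (-2.24 ± 0.33), the transglutaminase Tgm2 (-2.22 ± 0.22) and Fam110c (-2.2 ± 0.24). LT-HSC 4 departed from its group in opposite directions for 2 of these. Plxdc2 stood at 10.15, 10.21, 10.17 and 10.56 in LT-HSC and 7.20 to 8.67 in MPP4, with a set-adjusted change of -3.28 ± 0.32. Tgm2 stood at 9.54, 9.80, 9.71 and 7.95 and 6.94 to 7.11, with a set-adjusted change of -0.84 ± 0.17. The set-adjusted call of Fam110c was lost with the replicate block (adjusted p = 0.06).

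Megakaryocyte transcripts, part of which stem cells share, fell in part. Of 19 measured megakaryocyte genes 4 fell and none rose, against 1.11% and 0.873% of all genes. The quantile-normalized fit alone called 13 lower and 0 higher, against 12.4% and 12.3% of all genes. Median changes were -0.56 and -0.48 (set-adjusted). Mmrn1, a platelet granule protein that is also counted among the stem cell receptors here, stood at 9.83, 9.58, 9.78 and 9.48 in LT-HSC and at 7.35, 7.22, 7.62, 5.77 and 7.22 in MPP4 (-2.63 ± 0.26, adjusted p = 5.2e-08; set-adjusted -2.98 ± 0.43, adjusted p = 0.00021). MPP4 4 was its lowest array by far. Gp5, a platelet glycoprotein, stood at 8.30 to 8.91 in LT-HSC and 6.59 to 7.07 in MPP4 (-1.65 ± 0.23, adjusted p = 6.5e-06; set-adjusted -1.74 ± 0.39, adjusted p = 0.016), and its set-adjusted call was lost with the replicate block (adjusted p = 0.054). Clca3a1 stood at 9.29, 8.98, 8.82 and 6.95 in LT-HSC and 4.86 to 5.66 in MPP4 (-3.21 ± 0.31; set-adjusted -1.79 ± 0.37). Rab27b, a regulator of granule release, fell (-0.52 ± 0.12; set-adjusted -0.63 ± 0.17), and its set-adjusted call was lost without MPP4 4 (adjusted p = 0.25) and both calls on the deposited values. Vwf, von Willebrand factor, stood at 9.15, 9.0, 8.78 and 8.09 in LT-HSC and 7.29 to 7.62 in MPP4, separated but not called set-adjusted (-0.48 ± 0.14, adjusted p = 0.063) unless LT-HSC 1 (adjusted p = 0.0488) or LT-HSC 3 (adjusted p = 0.0448) was left out. Pf4, platelet factor 4, missed the set-adjusted threshold as well (-2.53 ± 0.44, adjusted p = 0.00016; set-adjusted -2.33 ± 0.72, adjusted p = 0.085).

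Of 17 measured erythroid genes 1 fell and none rose, against 1.11% and 0.873% of all genes. Median changes were -0.0039 and 0.01 (set-adjusted). The fallen gene was Car2, carbonic anhydrase 2 (-0.87 ± 0.12, adjusted p = 5.3e-06; set-adjusted -0.82 ± 0.17, adjusted p = 0.01). The erythroid factors Gata1 (-0.15 ± 0.14; set-adjusted -0.04 ± 0.25) and Klf1 (-0.24 ± 0.11; set-adjusted 0.23 ± 0.17) and the receptor gene Epor (-0.01 ± 0.11; set-adjusted -0.40 ± 0.15) were not called. The 2 changes of Klf1 differ in sign, with Klf1 called lower in the quantile-normalized fit without LT-HSC 4 (adjusted p = 0.0181). Car1, another carbonic anhydrase, varied within both groups, with 6.35 to 8.31 in LT-HSC and 6.65 to 9.59 in MPP4, with MPP4 2 highest.

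**Figure D3:**
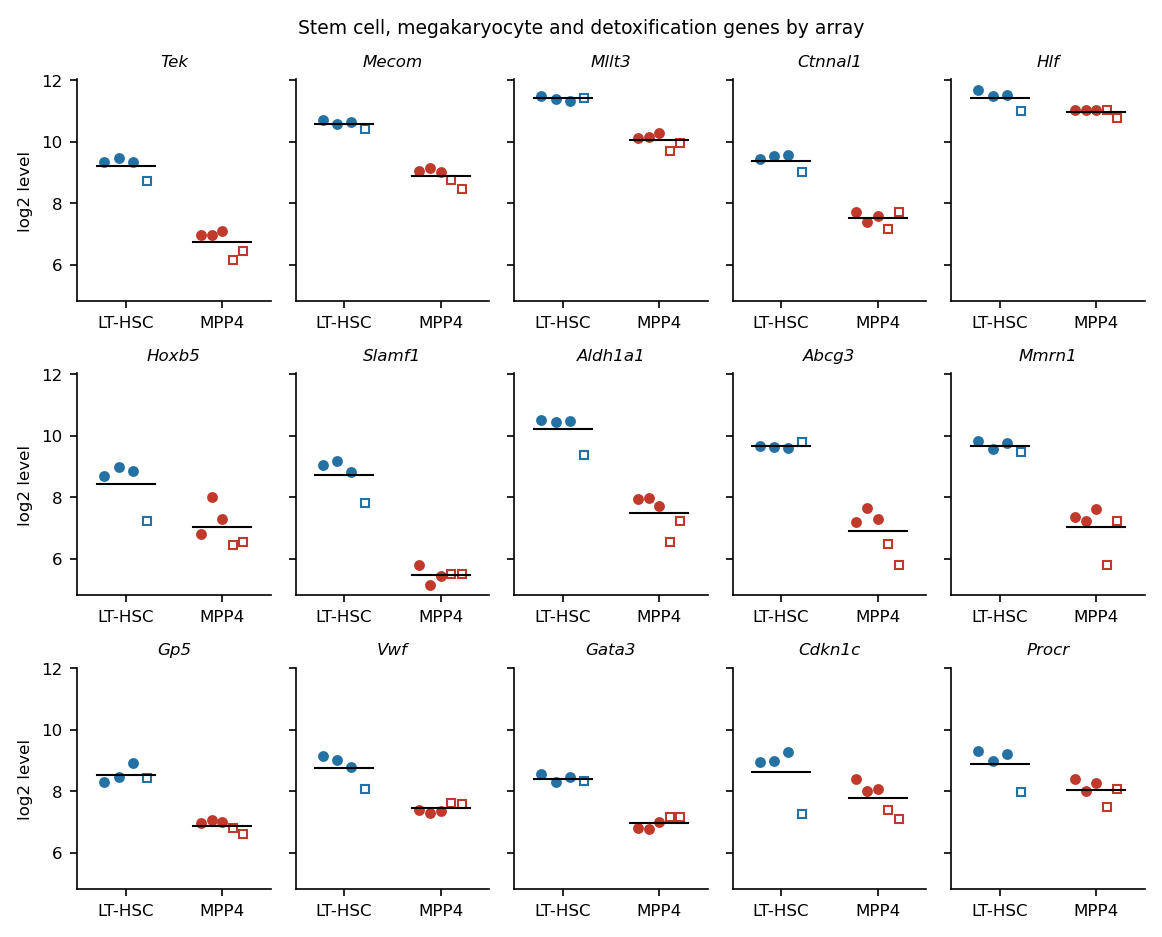
Log2 levels after quantile normalization of 15 genes, mostly of stem cells, megakaryocytes and detoxification, in LT-HSC (blue, 4 arrays) and MPP4 (red, 5 arrays); open squares are LT-HSC 4, MPP4 4 and MPP4 5, and bars are group means. Tek, Mecom, Mllt3, Abcg3 and Mmrn1 are separated between all arrays, whereas LT-HSC 4 overlaps MPP4 for Hlf, Hoxb5, Cdkn1c and Procr.

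Many genes of cell division were higher in MPP4 than in LT-HSC 1 to 3. LT-HSC 4 lay nearer to MPP4 in the mean of the list, but not for every gene. Of 24 measured mitosis genes 2 rose and none fell, against 0.873% and 1.11% of all genes. In the quantile-normalized fit 15 were higher, against 12.3% of all genes, and in the set-adjusted fit 3, against 1.39%. Median changes were 0.53 and 0.27 (set-adjusted). The first median was 0.23 when arrays were scaled by their medians. The mean level of the list was 8.62, 8.86 and 8.66 over the first 3 LT-HSC arrays, 9.12 for LT-HSC 4 and 9.16 to 9.73 in MPP4. Mki67, the proliferation antigen Ki-67, stood at 8.78, 8.71, 8.74 and 10.48 in LT-HSC and at 10.16, 10.28, 10.44, 10.39 and 10.95 in MPP4. LT-HSC 4 lay among the MPP4 arrays, and the change was called in the quantile-normalized fit only (1.27 ± 0.25, adjusted p = 0.00054; set-adjusted 0.19 ± 0.21, adjusted p = 0.73). Top2a, the topoisomerase of dividing cells, stood at 10.48, 10.68, 10.41 and 11.20 and at 11.50, 11.54, 11.44, 11.16 and 11.71 (0.78 ± 0.16, adjusted p = 0.00095; set-adjusted 0.24 ± 0.27, adjusted p = 0.73). The genes that rose were the mitotic kinases Aurka (0.52 ± 0.15, adjusted p = 0.014; set-adjusted 1.00 ± 0.22, adjusted p = 0.015) and Aurkb (0.53 ± 0.13, adjusted p = 0.0039; set-adjusted 0.86 ± 0.19, adjusted p = 0.015), each highest in MPP4 4 and 5, and Aurka overlapped between the groups. The set-adjusted call of Aurka was lost without MPP4 4 (adjusted p = 0.081) and a call of it with only the 9 arrays. That of Aurkb was lost without MPP4 5 (adjusted p = 0.059) and with the replicate block (adjusted p = 0.075). Both genes lost a call on the deposited values and after median subtraction. LT-HSC 4 was the lowest LT-HSC array for Aurka (8.566) and lay within its group for Aurkb (8.20). Plk1, another mitotic kinase, stood at 7.51 to 8.32 in LT-HSC and 8.03 to 8.69 in MPP4. Plk1 was called higher in the set-adjusted fit only. That call was lost without MPP4 5 (change 1.05), without MPP4 4 (1.18) and with the replicate block (1.05).

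Of 26 DNA replication genes none passed both fits in either direction. In the quantile-normalized fit 6 were higher and in the set-adjusted fit 0, against 12.3% and 1.39% of all genes. Their median changes were 0.22 and 0.25 (set-adjusted), but -0.16 when arrays were scaled by their medians. The share of all genes that passed both fits was 1.99%, so a list of this size may hold none. Pcna, the replication clamp, stood at 12.47 to 12.72 in LT-HSC and 12.63 to 12.72 in MPP4. Of 19 genes for G1 cyclins and kinases none passed both fits either. The quantile-normalized fit called 2 higher and 2 lower, against 12.3% and 12.4% of all genes. Medians were -0.04 and 0.03 (set-adjusted), and -0.28 with median scaling. Cdk6, a kinase of cell cycle entry, was higher in the quantile-normalized fit and not called set-adjusted (1.17 ± 0.18, adjusted p = 4.1e-05; set-adjusted 0.89 ± 0.28, adjusted p = 0.095). Of 22 quiescence and imprinted genes 1 fell and none rose, with medians of -0.24 and -0.12 (set-adjusted), and -0.43 with median scaling. It was the imprinted adaptor gene Grb10 (-1.70 ± 0.15, adjusted p = 4.9e-09; set-adjusted -1.27 ± 0.19, adjusted p = 0.00047). Cdkn1c, the imprinted cell cycle inhibitor p57, stood at 8.96, 8.99, 9.26 and 7.27 in LT-HSC and at 8.41, 8.01, 8.05, 7.37 and 7.09 in MPP4. LT-HSC 4 lay within the range of MPP4, and the change was called in the quantile-normalized fit only (-0.83 ± 0.26, adjusted p = 0.019; set-adjusted -0.04 ± 0.17, adjusted p = 0.95), and there it was lost without any one of LT-HSC 1 to 3 or MPP4 5 (adjusted p from 0.0624 to 0.110).

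Single members of the interferon, antigen presentation and glycolysis lists were called in both fits, which 1.99% of all genes passed. Of 24 type I interferon response genes 1 rose and 1 fell, with median changes of -0.20 and -0.09 (set-adjusted), and -0.47 with median scaling. These were Ifi27 (0.64 ± 0.13; set-adjusted 0.76 ± 0.17) and Ifih1, the RNA sensor MDA5 (-0.63 ± 0.17; set-adjusted -1.15 ± 0.30). Of 10 genes of MHC class II presentation 1 rose, with median changes of -0.10 and 0.52 (set-adjusted), which differ in sign, and -0.31 with median scaling. It was H2-Ob, which modulates peptide loading and stood at 7.38 to 7.68 in LT-HSC and 9.27 to 10.09 in MPP4 (2.10 ± 0.27, adjusted p = 3.3e-06; set-adjusted 2.31 ± 0.50, adjusted p = 0.012). Among LT-HSC, the class II genes H2-Aa, H2-Eb1 and Cd74 were lowest in LT-HSC 4, with H2-Aa at 10.00, 10.36, 10.36 and 8.36, and none of them was called with all arrays. Without LT-HSC 4 the quantile-normalized fit called all 3 lower in MPP4 (adjusted p = 0.0191, 0.0386 and 0.00571). Of 16 glycolysis genes 1 fell, with medians of -0.36 and -0.07 (set-adjusted), and -0.73 with median scaling. The quantile-normalized fit alone called 9 of them lower and 0 higher, against 12.4% and 12.3% of all genes. The set-adjusted fit called 1 lower. The gene that fell was Pdk3, a kinase that restrains pyruvate dehydrogenase (-1.06 ± 0.17, adjusted p = 8.3e-05; set-adjusted -1.19 ± 0.24, adjusted p = 0.0061). Without MPP4 4 the set-adjusted change of Pdk3 was -0.71 (adjusted p = 0.054). Without that array the set-adjusted calls of Ifi27 (adjusted p = 0.069), Ifih1 (adjusted p = 0.18) and H2-Ob (adjusted p = 0.066) were lost too. That of Ifih1 was also lost with the replicate block (adjusted p = 0.051), and Ifi27 and Ifih1 lost calls on the deposited values, and Ifi27 after median subtraction.

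Markers of cells outside the gates gave 1 call. Over all genes 1.99% passed both fits, so lists this short would hold few calls in any case. Of 14 genes of mature B and plasma cells, 17 of T and NK cells, 14 of neutrophils, 14 of macrophages and dendritic cells, 12 of mast cells, basophils and eosinophils and 5 of reticulocytes and erythroblasts, none passed both fits. The mean levels of these lists ranged from 5.94 to 6.76 in LT-HSC and from 6.12 to 6.96 in MPP4, and the groups overlapped for each list. The B and plasma cell mean was 6.69 to 6.72 in LT-HSC, 6.69, 6.79 and 6.70 in MPP4 1 to 3 and 6.96 and 6.95 in MPP4 4 and 5. Of 15 endothelial and stromal genes 1 rose, the growth factor receptor gene Pdgfrb (0.57 ± 0.12; set-adjusted 0.86 ± 0.19), with a list mean of 6.67 to 6.78 in LT-HSC and 6.71 to 6.88 in MPP4. The part of such cells in the results was not tested.

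**Figure D4:**
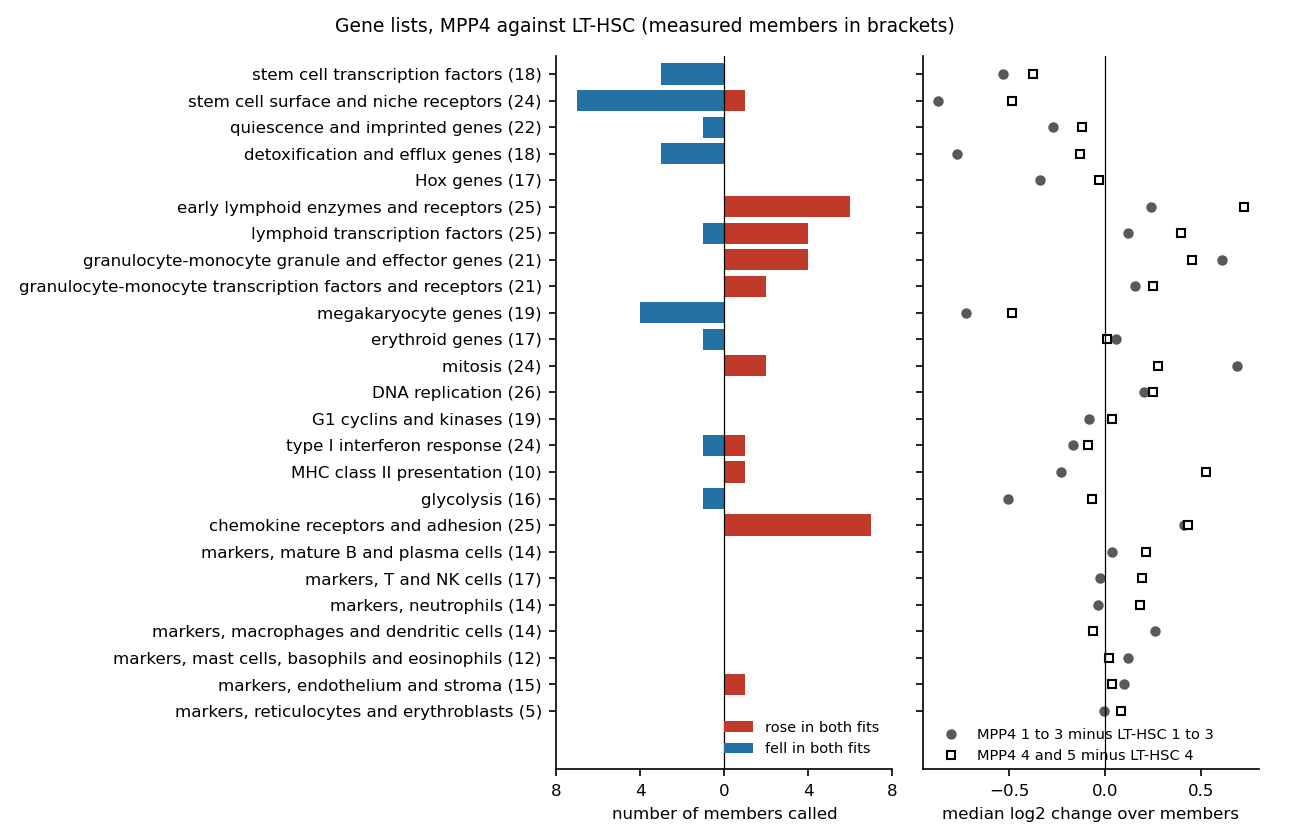
Left, the number of members of each gene list that fell (blue) or rose (red) in both fits; right, the median log2 change of the list between MPP4 1 to 3 and LT-HSC 1 to 3 (grey circles) and between MPP4 4 and 5 and LT-HSC 4 (open squares). The adhesion and early lymphoid lists hold 7 and 6 rises and the stem cell receptor list 7 falls, and the mitosis and detoxification medians are nearer 0 in the second pair (0.27 and -0.13) than in the first (0.69 and -0.77).

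MPP3, multipotent progenitors known for a bias to the granulocyte-monocyte lineage, were compared with MPP4 to see which differences separate these progenitors. The comparison of MPP4 with MPP3 (3 arrays) called 56 genes in both fits (0.281%), 31 higher (0.155%) and 25 lower (0.125%) in MPP4, or 19 higher and 10 lower when arrays were scaled by their medians. Its set-adjusted side compares MPP4 4 and 5 with MPP3 3 alone. Dntt was higher in MPP4 than in MPP3 (2.11, adjusted p = 2.3e-06; set-adjusted 1.82, adjusted p = 0.00061), and so was Satb1 (1.09, adjusted p = 0.00083; set-adjusted 1.38, adjusted p = 0.017). Ccl3 (2.59, adjusted p = 2.2e-06; set-adjusted 2.33, adjusted p = 0.0015) and Wfdc17 (2.78, adjusted p = 2.3e-06; set-adjusted 3.05, adjusted p = 0.0015) were higher as well. Flt3, the gate gene, was higher by 1.55. Other early lymphoid genes gave no call in both fits, namely Il7r (-0.98), Rag1 (0.20), Rag2 (0.51), Tespa1 (-0.09), Cd52 (-0.23), Cd69 (0.77), Ebf1 (-1.13) and Igll1 (-0.80). MPP3 also exceeded LT-HSC in the quantile-normalized fit for Dntt (3.53), Satb1 (1.96) and Il7r (2.77). The rise of these genes from LT-HSC is thus not particular to MPP4. Mpo was lower in MPP4 by the quantile-normalized fit and not called set-adjusted (-1.34, adjusted p = 0.009; set-adjusted -0.72, adjusted p = 0.46), and Elane had the same pattern (-1.90, adjusted p = 0.00029; set-adjusted -1.22, adjusted p = 0.2). Tek (-0.47, adjusted p = 0.21; set-adjusted -0.46, adjusted p = 0.21), Mecom (0.49, adjusted p = 0.18; set-adjusted 0.80, adjusted p = 0.088) and Mllt3 (-0.16, adjusted p = 0.74; set-adjusted -0.49, adjusted p = 0.37) gave no call in both fits between MPP4 and MPP3, which does not show that they are equal. MPP3 also lay below LT-HSC in the quantile-normalized fit for Tek (-2.02), Mecom (-2.19) and Mllt3 (-1.21). The fall of these 3 genes from LT-HSC is thus not particular to MPP4 either. The changes of MPP3 and MPP4 from LT-HSC share the LT-HSC arrays.

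Among all 9 populations, Dntt was highest in MPP4 (11.23 ± 0.45, mean ± SD, n = 5), followed by CMP, the common myeloid progenitors (9.31 ± 0.23, n = 3), and MPP3 (9.12 ± 0.69, n = 3), which did not differ beyond their spread. The other 6 populations had means of 5.59 to 6.13. Satb1 was highest in MPP4 (10.96 ± 0.31) and in granulocytes (10.70 ± 0.30), whose difference lay within their spread. Ccl3 stood at 10.39 ± 0.20 in MPP4 and 10.32 ± 0.40 in the population labelled PreGr, against 7.8 ± 0.18 in MPP3. Mpo in MPP4 (11.13 ± 0.53) lay between MPP2 (10.41 ± 0.53) and MPP3 (12.48 ± 0.23). Tek was highest in LT-HSC (9.22 ± 0.33), with 7.82 ± 0.12 in ST-HSC and 6.72 ± 0.41 in MPP4. These levels come from different sets of arrays without set adjustment and are descriptions.

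**Figure D5:**
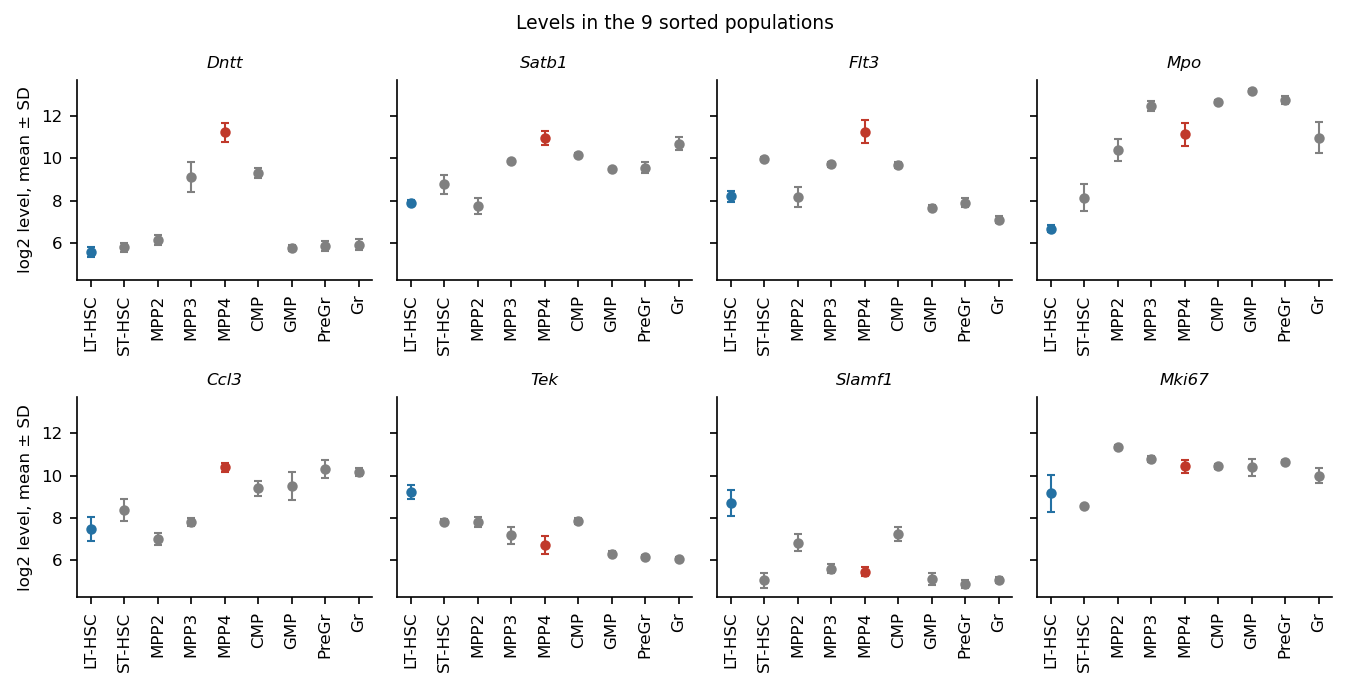
Mean log2 level after quantile normalization of 8 genes in the 9 sorted populations, with SD bars over 3 to 5 arrays. Dntt and Flt3 are highest in MPP4, Mpo is highest in GMP (13.19), Tek and Slamf1 are highest in LT-HSC, and Mki67 has a wide bar in LT-HSC (SD 0.87), where LT-HSC 4 lies apart.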

How the data were processed

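The authors deposited log2 expression values per probe, with RMA named in the submitters' processing notes and its version not given in the sources used here. Of 35557 probes, 21789 were paired with 1 gene, 1621 with several and 12147 with none. Probes of 1 gene gave 19938 genes, and the brightest probe was used for the 999 genes with several. These include 91 probes whose gene the gene reference does not hold, which were kept.

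The deposited sets of arrays were inferred from identical values, with 2 or more linking arrays. All 31 arrays were quantile-normalized and fitted with limma 3.58.1 in R 4.3.3 (lmFit and eBayes, two-sided, Benjamini-Hochberg over all genes), without the set (22 residual degrees of freedom) and with it (18). A gene rose or fell only if called at 0.05 in both fits. Errors are SE unless stated. Both fits were tested on simulated data. Tables and figures used Python 3.11.15, pandas 2.3.3 and matplotlib 3.10.9.

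Named genes were the 12 largest rises and 12 largest falls with separated groups (predicted genes, receptor segments and small RNAs passed over), up to 6 called members of each of 27 gene lists, 7 of them of other cells, and anchor genes of each list whatever their result. The members and lists were chosen with earlier results of these data known. Pairing was checked from deviations from group means: same-numbered MPP4 and LT-HSC arrays correlated at 0.126 to 0.272, all over 0.1, as did different-numbered ones among arrays 1 to 3 (0.132 to 0.197). The highest value was that of MPP4 5 and LT-HSC 4 (0.283), whose numbers differ. Pairs of an array from 1 to 3 with LT-HSC 4, MPP4 4 or MPP4 5 were all negative. The signs follow this split of the arrays, so the correlations cannot show whether same-numbered arrays are pairs. The replicate numbers come from the array titles. The alternatives covered scaling, filters, weights, blocks, probes and leaving out each array. Leaving out MPP3 3 or GMP 4, setting MPP4 1 to 3 against LT-HSC 1 to 3, and counting calls in both fits under each alternative were chosen after seeing the data.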

Additional observations from a re-analysis of the deposited data

Results flagged for a closer look

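For 23 of 248 groups of arrays of the genes described, 1 array lay far from the others by Dixon's criterion, which chance alone meets in about 1 of 20 groups. Values are log2 levels, each with the nearest level in the same group. LT-HSC 4 accounted for 11 of them. It was the lowest LT-HSC array for Aldh1a1 (9.37, nearest 10.45), Tgm2 (7.95, nearest 9.54), Rarb (7.20, nearest 8.64), Cdkn1c (7.27, nearest 8.96), Ndn (7.55, nearest 8.6), Ifitm1 (12.03, nearest 12.40), Pdk3 (9.65, nearest 10.06) and Pfkp (8.34, nearest 8.79). It was the highest for Plxdc2 (10.56, nearest 10.21), Irf8 (7.63, nearest 7.19) and Mki67 (10.48, nearest 8.78). Mki67 encodes a protein of dividing cells and Cdkn1c an inhibitor of division, and here LT-HSC 4 lay on the side of MPP4 for both. It did not for the mitotic kinase Aurka (8.566), where it was the lowest LT-HSC array.

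MPP4 5 was the highest MPP4 array for Rag1 (8.77, nearest 7.22), Igll1 (8.26, nearest 7.29), Ebf1 (6.69, nearest 5.88) and Irf7 (7.88, nearest 7.82), of which Rag1, Igll1 and Ebf1 belong to early B cell development, and the lowest for Hlf (10.76, nearest 11.02). MPP4 4 was lowest for Mmrn1 (5.77, nearest 7.22) and Pdk3 (7.97, nearest 8.94) and highest for Itgal (8.32, nearest 7.97). The other cases were Cd69 (6.87, nearest 7.54) as the lowest in LT-HSC 1 and Cd69 (9.08, nearest 9.64) as the lowest in MPP4 1, Tcf3 (8.34, nearest 8.15) as the highest in LT-HSC 3, and Car1 (9.59, nearest 7.44) as the highest in MPP4 2.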

How the results depend on the processing

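The quantile-normalized comparison of MPP4 with LT-HSC called 4932 genes, against 11963 on the deposited values, 9058 with each array's median subtracted, 2477 with only the 9 arrays, 953 with the set as a random block, 3085 without the genes of lowest level, 8865 with array weights and 400 when a 2-fold change was also required. Leaving out 1 array gave 3044 (without LT-HSC 1) to 7228 (without LT-HSC 4). The set-adjusted fit called 547 genes, 345 on the deposited values, and 292 to 1043 when 1 array was left out. It could not be fitted without LT-HSC 4. With the replicate block, which uses the pairing of same-numbered arrays, it called 887 genes, the quantile-normalized fit 4910, and 449 passed both. The number of genes called in both fits was 396, against 249 on the deposited values and 232 (without MPP4 4) to 470 (without MPP4 5) on leaving out 1 array, each counted anew. Against MPP3, 56 became 29 with medians subtracted, and 45 to 62 on leaving out 1 array (not fitted without MPP3 3). The quantile-normalized fit against MPP3 called 312 genes, and 118 to 772 on leaving out 1 array. Epor turned from -0.01 to 0.053 on the deposited values, and Pcna from 0.11 to -0.46 with medians subtracted. Of the results for single genes, 4145 kept their direction and side of the threshold, 173 lost a call, 53 gained one, 75 moved and 2 reversed. The cause was not tested. The 4 LT-HSC arrays, and 1 in the set-adjusted fit, limit what these comparisons can show.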
